A study of Mus musculus with 4 samples.

Results

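The genes described here are 9 effector T helper lineage genes, out of 21887 protein-coding genes of the gene table: the transcription factor genes Bcl6, Gata3, Stat4 and Tbx21, the receptor gene Il6ra, and the cytokine genes Tnf, Ifng, Il4 and Il17a. A peak was counted for one of them when its summit, the base with the highest signal, lay inside the gene or had that gene's annotated end as the nearest end of any protein-coding gene within 100 kb. By this rule 5 of 1106 anti-Eos peaks and 1 of 469 anti-Helios peaks belonged to the 9 genes. The libraries are chromatin immunoprecipitations with sequencing (ChIP-seq, a method that isolates the DNA a protein occupies) from regulatory T cells (Treg cells) taken from mouse spleen with a CD4+CD25+ kit. Both libraries used here came from wild-type mice, 1 with an antibody against Eos (encoded by Ikzf4) and 1 with an antibody against Helios (encoded by Ikzf2). The matching libraries from mice with floxed Eos and Foxp3-Cre, in which the deletion is limited to cells that express Foxp3, were not analysed here. The labels give no age, sex or strain of the animals and do not say whether spleens were pooled.

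Naive CD4+ T cells become effector T helper cells of several kinds. Type 1 (Th1) cells depend on T-bet (encoded by Tbx21) and on STAT4, which carries the interleukin-12 signal, and make interferon-gamma. Th2 cells depend on GATA3 and make interleukin-4, Th17 cells need interleukin-6 signals and make interleukin-17A, and follicular helper (Tfh) cells depend on BCL6. Treg cells use several of the same factors while keeping most effector cytokine genes quiet, and Eos and Helios are Ikaros family zinc finger proteins that Treg cells express.

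Each antibody had a single wild-type library, so replicate error is unknown and no difference between the antibodies was tested. Fold enrichment is the authors' own value for each peak. The control library behind it is not named in the labels. A fold over input DNA and a fold over another immunoprecipitation, such as a knockout library, cannot be told apart here. The median fold was 7.31 in the anti-Eos list and 7.66 in the anti-Helios list. The number of sequenced fragments at each summit was worked out from each peak's fold and p-value and had a median of 14 (range 7 to 106) for anti-Eos and 18 (range 9 to 124) for anti-Helios. Intervals of fragment counts are exact 95% Poisson intervals and cover counting error only. Peaks show where a protein was recovered and not whether a gene was expressed. Of 6 Treg marker genes, 4 had an anti-Eos summit and 1 an anti-Helios summit, and none of the 4 B cell, 4 myeloid and 4 CD8 and NK cell marker genes had either. Coordinates are those of GRCm38 (mm10).

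An anti-Eos summit was carried by 5 of the 9 genes, namely Tnf, Il6ra, Bcl6, Gata3 and Stat4, against 4.38% of all protein-coding genes. An anti-Helios summit was found at 1 of the 9, Il6ra, against 2.12% of all protein-coding genes. Il6ra was also the 1 gene of the 9 with overlapping peaks of both antibodies, against 1.44% of all genes. The signature transcription factor gene of Th1 cells, Tbx21, and the cytokine genes Ifng, Il4 and Il17a had no assigned summit in either list. The 9 genes were chosen with these peak lists known, so the counts describe them and do not set them apart from other genes.

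Among these genes the cytokine gene Tnf, which encodes the inflammatory cytokine tumour necrosis factor, had the highest deposited anti-Eos fold. Over the genome-wide background, taken as the lowest background recovered in the list, the fold at Il6ra was higher, 16.2 against 11.7 at Tnf, with 24 fragments against 17. The Tnf peak (chr17:35201751-35202090, 340 bp wide) had a fold of 11.5, a -log10 q of 15.1 and rank 110 of 1106 by deposited fold. By the fold over the genome-wide background its rank was 278. The summit lay 9 bp downstream of the listed start of Tnf, which is read from the minus strand. It rested on 17 fragments (interval 9.90 to 27.2) over a local background of 0.566 fragments. Of the 5 anti-Eos summits at the 9 genes, that of Tnf was the 1 within 1 kb of any listed transcription start, and 39.1% of all anti-Eos summits lay that close. No anti-Helios peak overlapped it. The nearest anti-Helios summit was 3.39 kb upstream of Tnf, at the start of the neighbouring gene Lta.

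Lta encodes lymphotoxin alpha, a cytokine of the same family, and ends a short distance upstream of Tnf on the same strand. At its start both antibodies gave a peak, with summits 92 bp (anti-Eos, chr17:35205325-35205467) and 49 bp (anti-Helios, chr17:35205310-35205471) upstream of the listed start. The anti-Eos peak had a fold of 4.70 and the anti-Helios peak one of 7.21. A further anti-Eos peak lay 599 bp downstream of that start (chr17:35204617-35204765, fold 5.15, 9 fragments). The anti-Eos peaks at the starts of Tnf and Lta held the same number of fragments, 17. The local background was 0.566 fragments at Tnf, with its fold of 11.5, and 2.83 at Lta, with its fold of 4.70. Recomputed over the genome-wide background of the list, 0.542 fragments, both had a fold of 11.7.

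**Figure D1:**
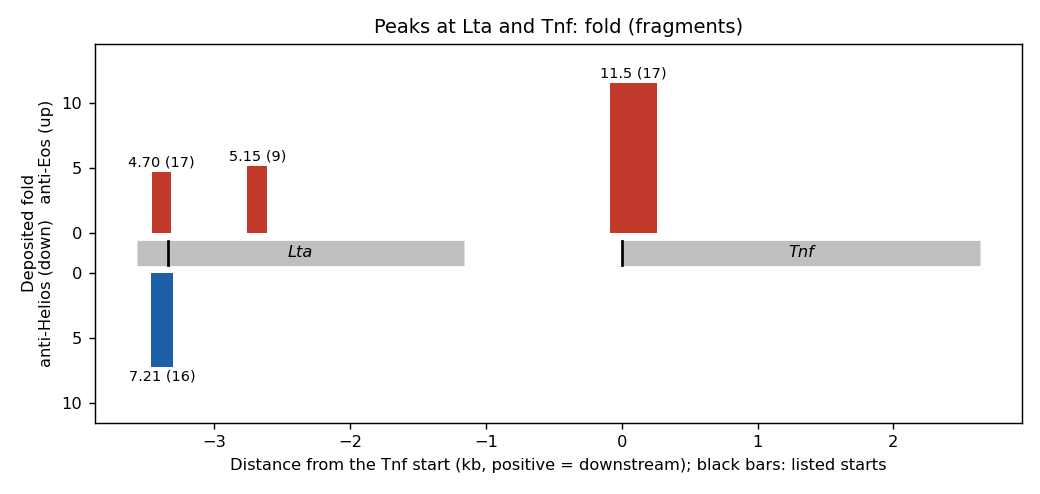
Peaks at Lta and Tnf. The x axis gives distance from the listed Tnf start in kb, bars above and below the genes span the anti-Eos and anti-Helios peaks, bar height is the deposited fold, and the fragment count stands in brackets. Anti-Eos peaks lie at both starts with 17 fragments each, and the anti-Helios peak lies at the Lta start with 16.

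The bases upstream of the Tnf and Lta starts are shown because the Tnf window was the 1 promoter window of the 9 genes that a peak met, and the Lta window next to it met peaks of both antibodies. They are RefSeq sequences of GRCm38.p6 on the minus strand, 250 bases each, and run up to the base before the start. Capitals mark GGGAA or its complement TTCCC, the core bases of Ikaros family motifs.
Tnf upstream bases, chr17:35202008-35202257: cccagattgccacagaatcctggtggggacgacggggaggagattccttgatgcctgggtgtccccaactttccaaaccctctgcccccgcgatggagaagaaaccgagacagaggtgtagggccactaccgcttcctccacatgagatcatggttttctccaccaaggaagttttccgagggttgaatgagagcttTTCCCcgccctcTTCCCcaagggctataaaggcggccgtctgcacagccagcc
Lta upstream bases, chr17:35205352-35205601: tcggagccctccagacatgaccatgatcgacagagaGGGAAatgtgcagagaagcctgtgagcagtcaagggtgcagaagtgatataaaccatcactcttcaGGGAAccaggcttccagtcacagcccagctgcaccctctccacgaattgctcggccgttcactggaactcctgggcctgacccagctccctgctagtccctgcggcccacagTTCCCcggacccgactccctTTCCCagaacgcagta

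The anti-Eos peak at Tnf covered the last 83 of these bases and 257 bases from the start onward. Both matches of the Tnf stretch, starting 53 and 41 bases before the start, fell in the covered part. At Lta the peaks covered the last 116 (anti-Eos) and 120 (anti-Helios) bases, with 2 of the 4 matches of the stretch. In windows from 250 bases before to 50 bases after a listed start, read on both strands, GGGAA was present in 62.7% of 32851 windows of all genes. It was present in 79.0% of the 314 windows with an anti-Eos summit and 79.5% of the 185 with an anti-Helios summit. Of the 12 windows of the 9 genes, 9 held it, among them windows of Il4, Il17a and Tbx21, which had no peak. The window of Ifng, that of Gata3 and the Stat4 window at chr1:52007990-52008289 held no match.

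The STAT motif TTCNNNGAA was present in 4 of the 12 windows, at both starts of Bcl6, at 1 of the 2 starts of Il4 and at Ifng, against 8.30% of all windows. At Lta it had 2 matches, each overlapping a GGGAA match. The GATA motif AGATAA was present in 1 of the 12 windows, that of Il6ra, against 11.2% of all windows. Such a match records letters in the window and is not evidence of a bound site, and base composition was not taken into account.

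The transcription factor genes Bcl6, Gata3 and Stat4 each carried 1 anti-Eos peak inside the gene, away from the listed starts. All 3 peaks had a middling deposited fold. Bcl6 encodes a repressor that directs Tfh cells. Its peak (chr16:23984838-23984981) had a fold of 7.38, a -log10 q of 6.97 and 12 fragments (6.20 to 20.96) over a background of 0.762. The summit was 3.98 kb inside the 5′ end of the gene, downstream of the first listed start and 3600 bp upstream of the other.

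Gata3 encodes the zinc finger factor that directs Th2 cells and also acts in Treg cells. Its peak (chr2:9871272-9871474) had a fold of 7.20, a -log10 q of 6.98 and 13 fragments (6.92 to 22.2) over a background of 0.943. The summit lay 7209 bp downstream of the listed start and 14.3 kb from the 3′ end of the gene.

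Stat4 encodes the transducer of the interleukin-12 signal. Its peak (chr1:52011402-52011558) had the lowest fold of the 5, 7.03, with a -log10 q of 6.16 and 11 fragments (5.49 to 19.7) over a background of 0.708. The summit was 24.3 kb inside the 5′ end of the gene, which spans 120 kb, and 3190 bp downstream of the listed start that lies within the gene. The fragment intervals of Bcl6, Gata3 and Stat4 overlapped one another, so their counts did not order them. Over the genome-wide background the folds were 8.43 at Bcl6, 9.08 at Gata3 and 7.78 at Stat4. The order of Bcl6 and Gata3 by fold thus depended on the background used.

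By deposited fold these 3 peaks ranked 542, 571 and 633 of 1106, with 51.1%, 48.5% and 42.9% of the list at or below their fold. Over the genome-wide background they ranked 674, 580 and 789 of 1106. Such deposited folds were shared by many places. The peaks next to Bcl6 in the ranking, at Atg16l1 and Cacul1, had its fold and its 12 fragments. Those next to Gata3, at Msh6 and Vim, had its fold and its 13 fragments. Further peaks had these same folds, and among equal folds the order was only that of the deposited list. Stat4 stood between a peak at Emsy (7.05, 26 fragments) and one at Btd (6.98, 11 fragments), and Tnf between the peak in Cxcr5 (11.6, 26 fragments) and one at Tmem154 (11.5, 18 fragments). No anti-Helios summit lay within 100 kb of Bcl6, Gata3 or Stat4. The nearest was 2593 kb from Bcl6, 175 kb from Gata3 and 509 kb from Stat4. The smallest count behind any listed anti-Helios peak was 9 fragments, so a weaker signal at these genes would not have been listed.

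**Figure D2:**
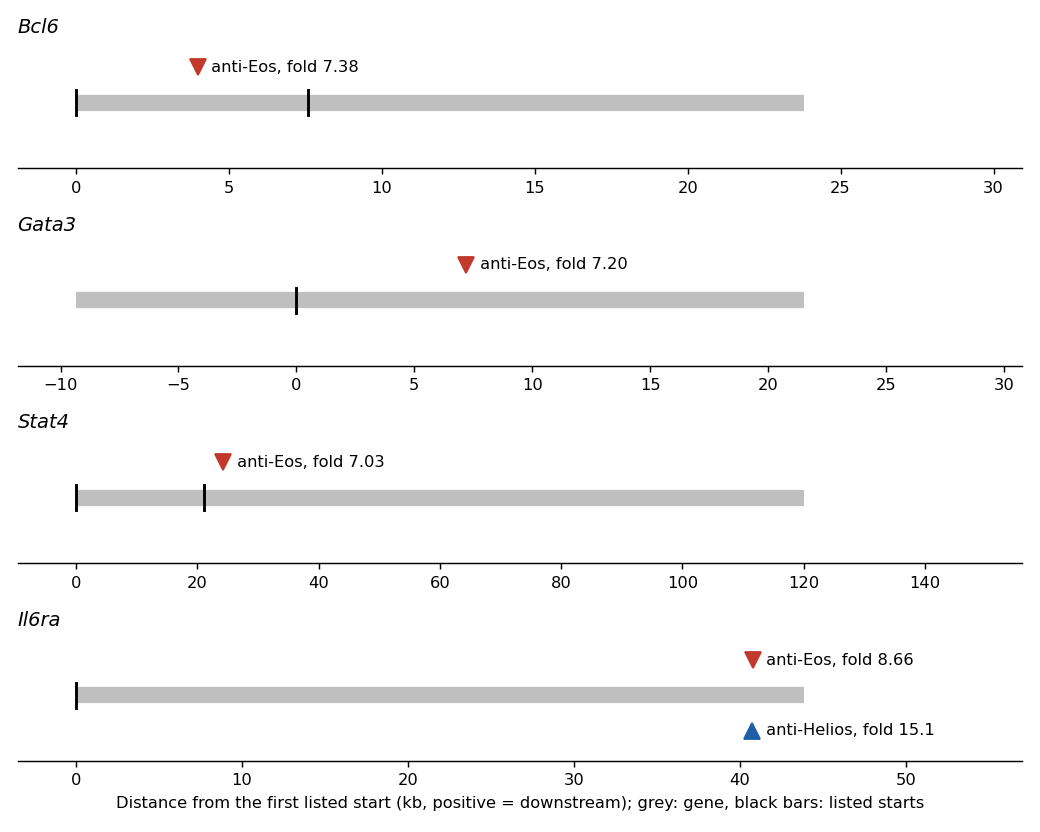
Summits inside Bcl6, Gata3, Stat4 and Il6ra. The x axis of each panel gives distance in kb from the first listed start in the direction of reading, grey bars are the genes, black bars are listed starts, and triangles are summits of anti-Eos (pointing down) and anti-Helios (pointing up) with their folds. The Il6ra summits of the 2 antibodies lie together close to the 3′ end, and those of the other genes lie between 3.19 and 7.21 kb from the nearest listed start.

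Il6ra encodes the alpha chain of the interleukin-6 receptor, through which T cells receive the signal that favours Th17 over Treg development. Both antibodies gave a peak close to its 3′ end, with the anti-Eos peak at chr3:89872304-89872624 and the anti-Helios peak at chr3:89872333-89872592. The summits were 39 bp apart, 3101 and 3140 bp inside the 3′ end and 40.8 and 40.7 kb downstream of the listed start. The long non-coding RNA gene Gm46811 (chr3:89872104-89890243) also spans these summits, so the place cannot be given to Il6ra alone by position. With anti-Helios the fold was 15.1 and the -log10 q 23.6, which ranked 14 of 469. With anti-Eos the fold was 8.66 and the -log10 q 13.8, which ranked 337 of 1106.

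The peaks held 27 fragments with anti-Helios (17.8 to 39.3) and 24 with anti-Eos (15.4 to 35.7), and these intervals overlapped widely. The local backgrounds were 0.672 fragments for anti-Helios, the lowest value of its list, and 1.89 for anti-Eos. Over the genome-wide background of each list, a calculation chosen after the data were seen, the folds were 15.1 with anti-Helios and 16.2 with anti-Eos. The ratio of the anti-Helios to the anti-Eos fold was 1.74 as deposited, a ratio that 15 of the 310 overlapping pairs in the lists reached. Over the genome-wide background it was 0.929, which 138 of 310 reached. On the same scale the median ratio of all pairs was 0.880, and the Il6ra peak ranked 89 of 1106 with anti-Eos and 71 of 469 with anti-Helios. At Il6ra the deposited folds of the 2 antibodies thus lay farther apart than the folds over the genome-wide background, and the order of the antibodies was the opposite.

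The overlapping pairs closest to that of Il6ra by both deposited log2 folds, over these 2 libraries, were at Slx1b (7.99 with anti-Eos and 13.3 with anti-Helios), Fam207a (9.35 and 13.3) and Tsc22d4 (9.78 and 13.5).

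**Figure D3:**
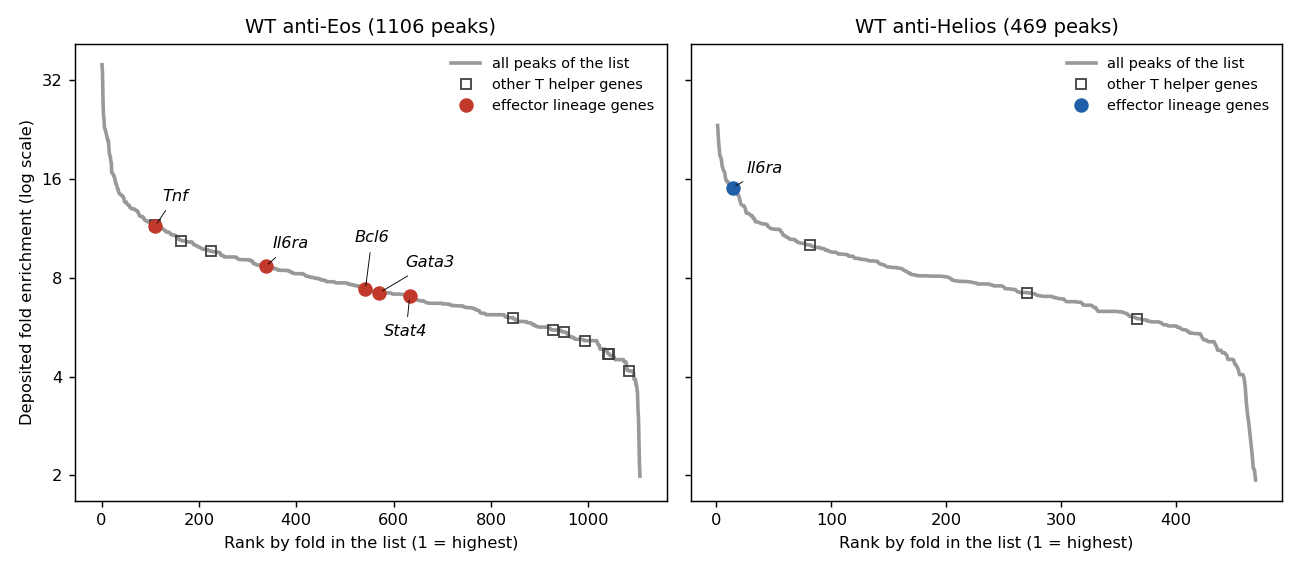
All peaks of each list ranked by deposited fold (grey line, log axis), with the effector lineage genes (filled circles) and the other T helper genes with a peak (open squares) marked. Il6ra ranks 14 of 469 with anti-Helios, and the 5 anti-Eos peaks lie between ranks 110 and 633 of 1106.

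**Figure D4:**
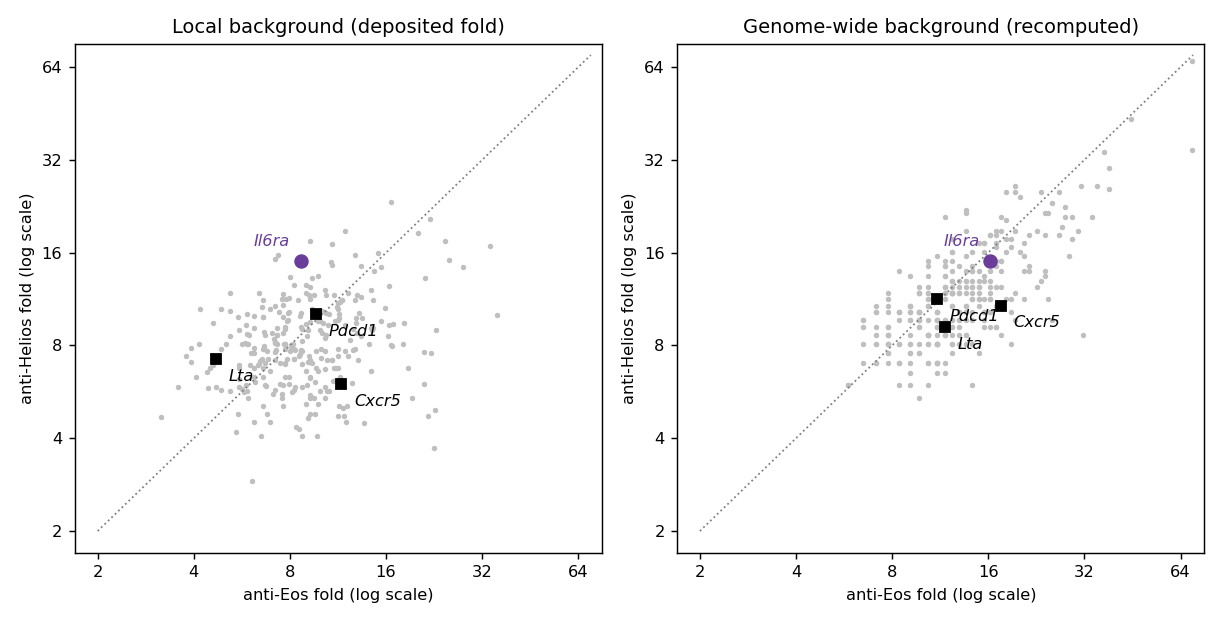
Folds of the 310 overlapping peak pairs (grey points), with anti-Eos on the x axis and anti-Helios on the y axis (log axes, dotted line of equal fold). The left panel uses the deposited folds and the right panel folds recomputed over the genome-wide background of each list. Il6ra (circle) moves from a ratio of 1.74 to 0.929, and Pdcd1, Cxcr5 and Lta are shown as squares.

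The genes without an assigned summit differed in how near the closest peaks lay. A summit inside or within 100 kb of the gene, whichever gene it was assigned to, was found for 6 of the 9 genes with anti-Eos (16.9% of all protein-coding genes) and for 3 with anti-Helios (9.31%). Tbx21, which encodes T-bet, the signature factor of Th1 cells, was among both. An anti-Helios peak (chr11:97127001-97127121, fold 7.71, 14 fragments) lay 11.7 kb upstream of Tbx21, between it and the kinase adaptor gene Tbkbp1. By the nearest gene end, 9.12 kb away, it was assigned to Tbkbp1, although the nearest listed start was that of Tbx21. The nearest anti-Eos summit was 72.6 kb upstream of Tbx21 and 6 bp from the start of Kpnb1 (fold 8.10, 13 fragments).

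Il4 encodes the signature cytokine of Th2 cells. The nearest summits were 145 kb upstream with both antibodies, beyond Rad50, the gene within which the Th2 locus control region is known to lie. They overlapped each other at chr11:53763873-53764081 (anti-Eos, fold 8.23, 15 fragments) and chr11:53763908-53764076 (anti-Helios, fold 7.21, 15 fragments). That place was 6.08 and 5.99 kb from the start of Irf1, an interferon-responsive transcription factor gene, to which it was assigned.

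Ifng encodes interferon-gamma, the signature cytokine of Th1 cells. Its nearest summits were 338 kb upstream with both antibodies, with folds of 6.58 (anti-Eos, 18 fragments) and 9.90 (anti-Helios, 21 fragments), and were assigned to Mdm1. Il17a encodes interleukin-17A. Its nearest summits were 599 kb downstream with both antibodies, with folds of 18.2 (anti-Eos, 27 fragments) and 9.45 (anti-Helios, 20 fragments), and were assigned to Khdc1a. The summits nearest to Il4, Ifng and Il17a were thus places shared by both antibodies and assigned to genes outside the T helper lists. Absence from a list means that no place passed the authors' threshold at this depth.

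The 9 genes and 48 others with known roles in the T helper lineages, 57 genes in 4 lists, were examined in the same way. These lists too were drawn up with earlier results of these data known. Of the 48 further genes, 8 had an anti-Eos summit (16.7%, against 4.38% of all protein-coding genes) and 3 had an anti-Helios summit (6.25%, against 2.12%). The 3 had overlapping peaks of both antibodies, against 1.44% of all protein-coding genes. With the 9 genes counted in, anti-Eos summits were assigned to 5 of 11 Tfh genes, 4 of 17 Th1 genes, 2 of 14 Th2 genes and 2 of 15 Th17 genes, against the same 4.38% of all genes. Anti-Helios summits were assigned to 2, 1, 0 and 1 of them, against 2.12%. Cytokine genes other than Tnf and Lta, such as Il5, Il13, Il17f, Il21 and Il22, had no summit assigned to them, nor had Eomes, a T-box factor gene related to Tbx21. Of these genes, Il5 had a summit of each antibody within 100 kb that was assigned to another gene.

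In the Tfh list, Pdcd1, which encodes the inhibitory receptor PD-1, had peaks of both antibodies beyond its 3′ end, 2788 and 2858 bp away. Their folds were 9.65 (anti-Eos, 16 fragments) and 10.1 (anti-Helios, 20 fragments). Cxcr5, which encodes the chemokine receptor that brings T cells into follicles, had peaks of both antibodies inside the gene. The folds there were 11.6 with anti-Eos (26 fragments, 17.0 to 38.1) and 6.00 with anti-Helios (19 fragments, 11.4 to 29.7). The nearest end of any protein-coding gene to the Cxcr5 summits was that of Bcl9l. Icos, a costimulatory receptor gene, had an anti-Eos peak inside the gene (5.54, 15 fragments). Il21r, which encodes the interleukin-21 receptor, had 1 anti-Eos peak on each side of the gene (4.68 with 7 fragments and 5.46 with 11).

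In the other lists, Rora, which encodes a nuclear receptor active in Th17 and Treg cells, had an anti-Eos peak deep inside the gene, 381 kb downstream of the listed start (10.4, 15 fragments). Ifngr2, a chain of the interferon-gamma receptor, had an anti-Eos peak 13.5 kb upstream of its start (6.05, 14 fragments). Il4ra, a chain of the interleukin-4 receptor, had an anti-Eos peak 9473 bp beyond its 3′ end (4.16, 11 fragments), in the interval between Il4ra and Il21r. The peaks of Il4ra and the upstream peak of Il21r were close to the weakest of the list, with -log10 q of 2.16 and 2.13 against a smallest listed value of 2.08. The 5 anti-Eos peaks of the 9 genes all had a -log10 q of at least 6.16. Among the other T helper genes, the anti-Eos peaks of Cxcr5 (19.6), Rora (12.6) and Pdcd1 (11.7) were above that value too. Those of Icos, Ifngr2, Il21r, Il4ra and Lta were below it.

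**Figure D5:**
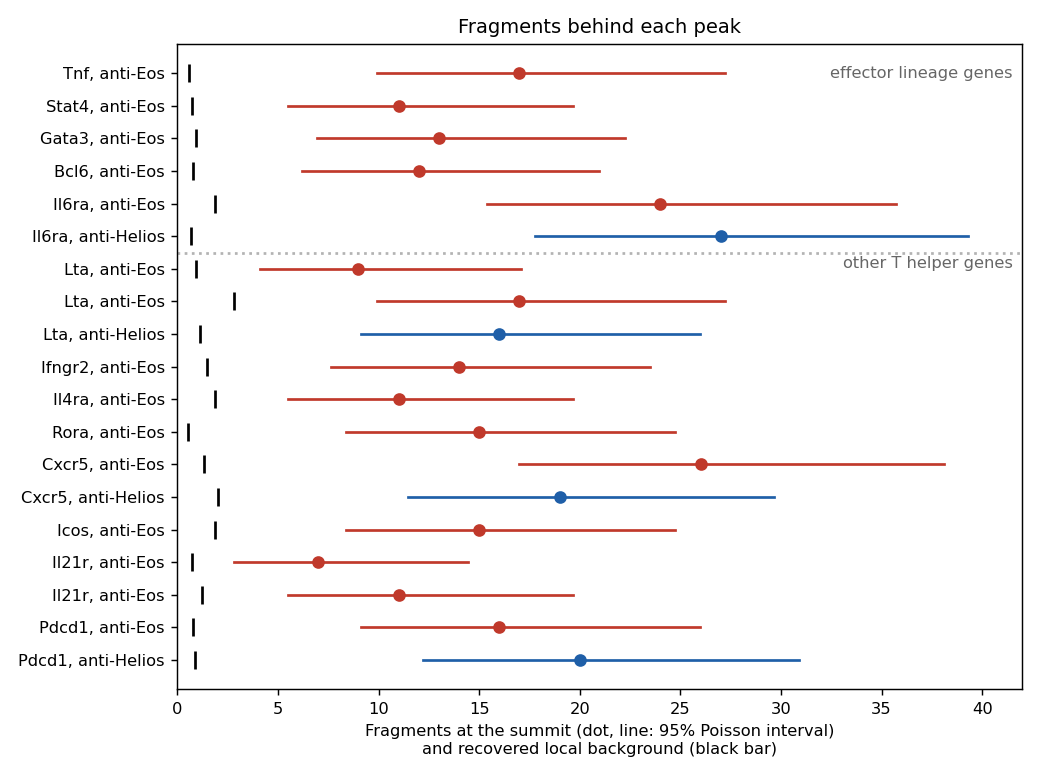
Fragments behind each peak at the effector lineage genes (above the dotted line) and at the other T helper genes (below it). Dots are whole fragments at the summit, red for anti-Eos and blue for anti-Helios, lines are 95% Poisson intervals, and black bars are the recovered local background in fragments. The Il6ra counts of 24 and 27 have overlapping intervals, and the Lta peak with 17 fragments stands over the highest background, 2.83.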

How the data were processed

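Narrow peak lists of 2 of 4 libraries were used. Per the submitters' processing notes the builds were mm10 and GRCm38.p6, and the tools included deepTools 3.5.1, SAMtools 1.17, Picard, cutadapt 4.4 and BWA 0.7.1. Peak caller and controls: not given in the sources used here. The authors deposited for each peak a fold (a ratio over background), a -log10 p-value, a -log10 q-value, an integer score and a summit offset, and called peaks for each library separately. The deposited score was 10 times the -log10 q without its decimals.

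Fragments and local background were solved from fold and p, assuming (fragments + 1)/(background + 1) and an upper Poisson tail, an inference from the values. This matched 100% of peaks within a relative tolerance of 0.0001, after scaling anti-Helios fragments by 0.895, and was tested on simulated data. In each list 1 peak had a second solution. Background is on the scale of the control as the fold uses it. Summits were compared with RefSeq gene spans and listed starts (GRCm38.p6, promoter table). Exons, introns and UTRs were not assigned. Overlap meant at least 1 bp. All members, the lists' genes with summits, the summits nearest to members, flanking ranks and the 3 most alike pairs were named by rule. Members and lists were chosen with earlier results of these data known. Python 3.11.15, pandas 2.3.3 and SciPy 1.17.1 were used.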

Additional observations from a re-analysis of the deposited data

How the results depend on the processing

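Assignment within 10 kb or 500 kb, a -log10 q of at least 5, the single nearest protein-coding end, the nearest end among all annotated genes, removal of peaks over more than 3 control fragments of background, and stricter overlap (50% of both peaks, or summits at most 100 bp apart) were tried. Of 41 recomputed counts, 38 stayed within 1.5 times the reported value. With assignment within 500 kb the 9 genes had 3 anti-Helios summits at 2 genes, and 2 shared peaks, through distant places downstream of Gata3. The 5 genes with an anti-Eos summit numbered 5 under each alternative. Over the genome-wide background (chosen after the data were seen), the anti-Eos fold at Il6ra went from 8.66 to 16.2, and the other 5 folds stayed within the counting interval. No paired analysis was possible because each group has 1 library, and for the same reason no replicate could be left out. Counts of 11 to 27 fragments at the 9 genes, and of as few as 7 at the other genes named, limit the precision of the folds.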

Other observations

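Farther from Gata3 than the 100 kb of the assignment rule, 2 places downstream of the gene had it as the nearest protein-coding gene. At the first, both antibodies gave overlapping peaks 175 kb beyond the 3′ end, at chr2:9681786-9681961 with anti-Eos (fold 8.23, -log10 q 9.20, 15 fragments) and at chr2:9681751-9681943 with anti-Helios (fold 5.75, -log10 q 2.66, 10 fragments). The summits were 117 bp apart. At the other, 263 kb beyond the 3′ end, an anti-Helios peak (chr2:9594035-9594223, fold 7.56, -log10 q 6.46, 14 fragments) had no anti-Eos partner, and the nearest anti-Eos summit was 87.8 kb away. An enhancer of Gata3 that acts in T cells is known to lie far downstream of the gene, and whether either place coincides with it was not tested. The anti-Eos fold at the shared place was above that of the peak inside Gata3, 7.20, with fragment counts of 15 and 13 whose intervals overlapped.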
